A study of Mus musculus with 10 samples.

Results

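The Cbx genes encode small chromatin proteins that share a chromodomain, a fold that reads methylated lysines on histone H3. Their transcripts were followed here in mouse eggs that had stopped at metaphase II (MII). The members were the probe sets that the platform annotation assigned to exactly 1 gene, that gene being Cbx1, Cbx2, Cbx3, Cbx5, Cbx6, Cbx7 or Cbx8. This gave 20 probe sets of 7 genes, out of 18193 genes with such a probe set. The array holds 45101 probe sets in all. Another 4 probe sets were listed with both Cbx3 and its pseudogene Cbx3-ps5 and were left out by this rule, so Cbx3 rests on 1 probe set.

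All oocytes came from B6D2F1 female mice that had received eCG and, 48 h later, 5 IU of hCG. They were collected 16 h after the hCG as oocytes that had matured in vivo, and cumulus cells were taken off with hyaluronidase. The spindle-chromosome complex (SCC) was removed by microsurgery (3 arrays, replicates 1 to 3), the cytoplast was the enucleated rest of the oocyte (4 arrays, replicates 1 to 4), and the intact MII oocyte was the undivided cell (3 arrays, replicates 2 to 4). The design asks whether maternal mRNAs are enriched at the meiotic spindle. The labels call the arrays biological replicates but name no animals and no pools of oocytes, so p-values measure only the spread between these samples, which may be technical.

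The 7 genes fall into 2 families. Cbx1, Cbx3 and Cbx5 encode the heterochromatin proteins HP1 beta, gamma and alpha, which bind histone H3 methylated at lysine 9, pair through a second domain called the chromoshadow domain, and compact the chromatin around centromeres. Cbx2, Cbx6, Cbx7 and Cbx8 encode alternative subunits of Polycomb repressive complex 1 (PRC1), which bind H3 trimethylated at lysine 27 and help to keep developmental genes silent. Maternal stores of both families matter at fertilisation, when HP1 and PRC1 proteins supplied by the egg take their places on the parental chromosomes. An MII oocyte does not transcribe, so what the arrays read is stored mRNA.

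Oocyte identity was clear in all arrays. Of 19 oocyte marker genes with a probe set, 15 were above background on every array, among them Gdf9 and Zar1, and Khdc3, Sohlh1 and Figla were on none. Of 23 cumulus and granulosa markers with a probe set, none was above background on every array and 20 were on none, including Fshr, Inha, Amh and Has2. The other 3 were Nr5a2, above it on 9 arrays, Kitl on 7 and Foxl2 on 2. The summed intensity of the cumulus list was 754 to 913 in the SCC, 704 to 824 in the cytoplast and 714 to 827 in the MII oocyte. Above background means brighter than the 95th percentile of 87 probe sets of genes of other tissues on the same array, a level of 75.1 to 105. The array medians lay between 15.6 and 16.6. With RNA amplified in 2 rounds and 10 µg of cRNA put on each array, intensities are relative amounts within a sample and not amounts per oocyte. The number of arrays limits the precision.

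Transcripts of 2 of the 7 genes stood above background, Cbx1 from the HP1 family and Cbx2 from the Polycomb family. The probe sets of the other 5 genes were at background on every array, which for Cbx3 is 1 probe set, since the 4 shared with its pseudogene were not analysed here. Of the 20 probe sets, 3 were above background on all 10 arrays (2 of Cbx1 and 1 of Cbx2), 1 more of Cbx1 was above it on 8 arrays, and 16 were above it on none. Those 16 ranged from 8.49 to 56.04. Probe sets of 1 gene did not all see the transcript: of the 5 listed for Cbx1, 2 stayed at 13.46 to 29.22, and of the 2 for Cbx2, 1 stayed at 9.47 to 12.09.

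**Figure D1:**
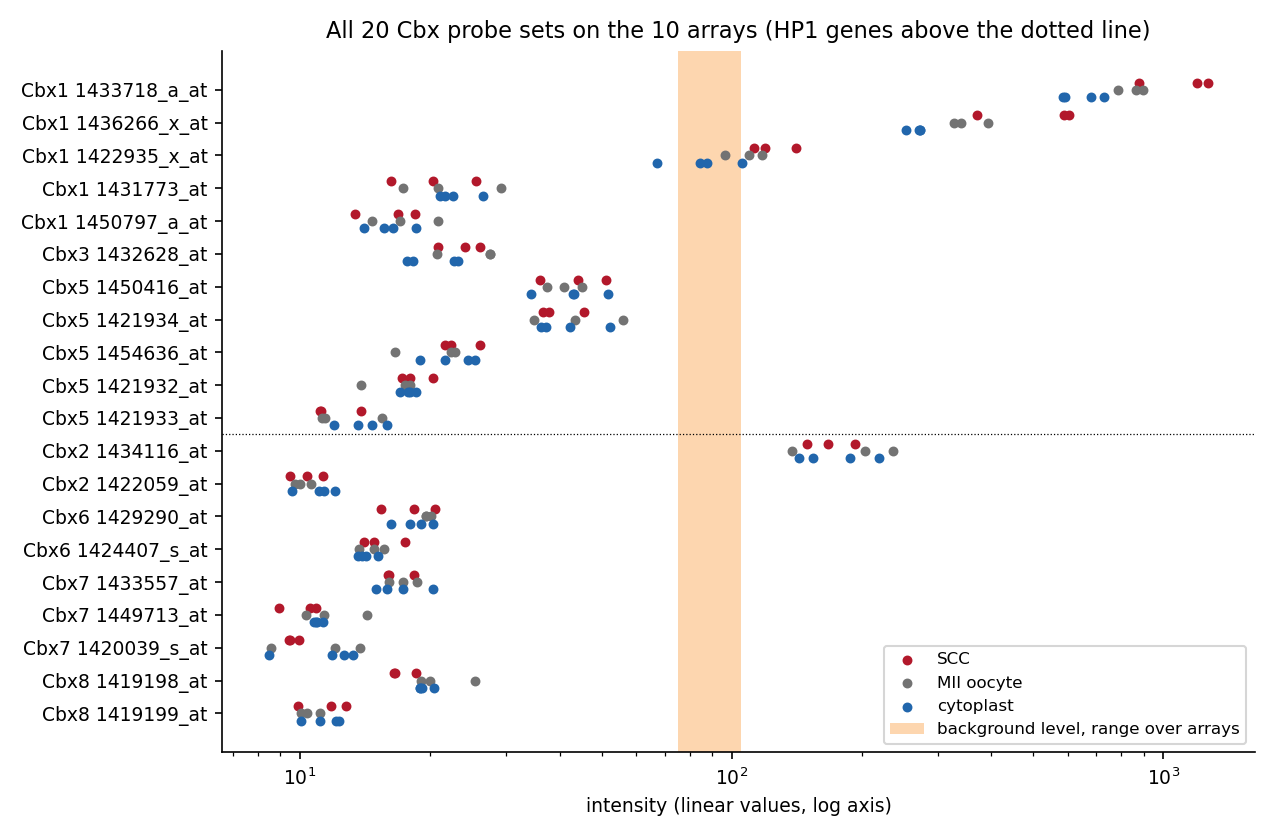
Intensity (log axis) of each of the 20 Cbx probe sets on each of the 10 arrays, with colours for SCC, MII oocyte and cytoplast and a band for the background level of 75.1 to 105. Points of 3 Cbx1 probe sets and 1 Cbx2 probe set reach or pass the band, and the other 16 stay at 56.04 or less.

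Cbx1, the HP1 beta gene, was the only member with a called difference, with a higher relative intensity in the SCC than in the cytoplast. Its brightest probe set, 1433718_a_at, read 879, 1198 and 1268 in SCC replicates 1 to 3. In the cytoplast it read 592, 586, 727 and 680 in replicates 1 to 4, and in the MII oocyte 899, 866 and 786 in replicates 2 to 4. Every SCC array was above every cytoplast array, and every MII oocyte array also lay above every cytoplast array. The means were 1115 ± 207 (SD, n = 3) in the SCC, 646 ± 69.0 (n = 4) in the cytoplast and 851 ± 58.1 (n = 3) in the MII oocyte. The SCC was 1.71-fold above the cytoplast (log2 difference 0.78, SE 0.15, 95% interval 0.46 to 1.09, limma adjusted p = 0.0123).

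The second bright Cbx1 probe set, 1436266_x_at, gave the same order of groups. It read 370, 604 and 589 in SCC replicates 1 to 3. The cytoplast arrays were tightly grouped at 253, 273, 273 and 272, and the MII oocyte arrays read 340, 393 and 327 in replicates 2 to 4. SCC replicate 1 was the lowest of its group on both probe sets and fell within the range of the MII oocyte arrays. The SCC mean was 521 ± 131 (SD, n = 3). That of the cytoplast was 268 ± 9.83 (n = 4), a 1.90-fold difference (0.93 on the log2 scale, SE 0.16, 95% interval 0.57 to 1.29, limma adjusted p = 0.0101). The suffix x in its name marks a probe set in which some probes can also match other sequences, whereas the suffix a of 1433718_a_at marks probes shared by transcripts of 1 gene.

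The third Cbx1 probe set, 1422935_x_at, lay at the edge of background. It read 112, 120 and 141 in the SCC, 84.6, 87.8, 106 and 67.4 in the cytoplast, and 96.8, 118 and 110 in the MII oocyte. All SCC arrays were above all cytoplast arrays, but only 2 of the 4 cytoplast arrays were above background. The log2 difference was 0.54 (SE 0.16, 95% interval 0.20 to 0.88) and missed the threshold (limma adjusted p = 0.0619). The remaining 2 Cbx1 probe sets were below background in both groups, so no fold is given, and neither passed. Over the 10 arrays the brightest probe set correlated with the second at r = 0.96 and with the third at 0.79. The points share arrays and groups.

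**Figure D2:**
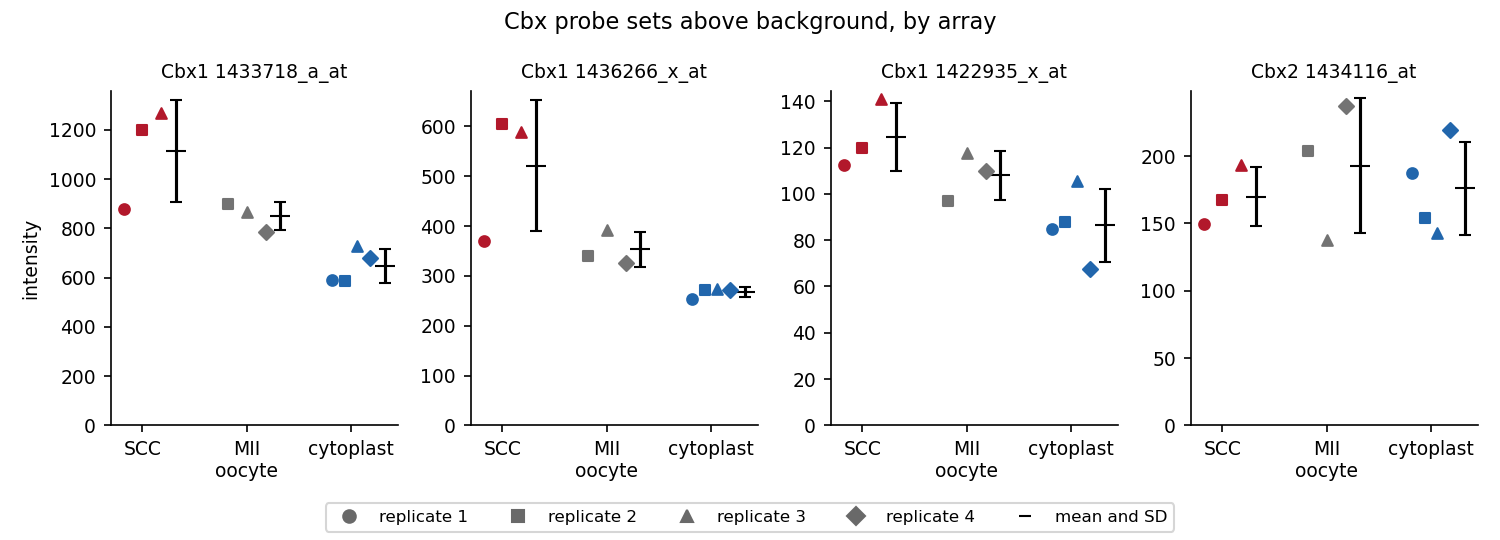
Intensity by array for the 4 Cbx probe sets above background on at least some arrays, with a marker for each replicate number and a bar for mean and SD per group (SCC n = 3, MII oocyte n = 3, cytoplast n = 4). On each Cbx1 panel the 3 SCC arrays lie above the 4 cytoplast arrays, whereas the Cbx2 arrays of the 3 groups overlap.

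Of the 14 Cbx probe sets bright enough to be tested, 2 passed as higher in SCC against cytoplast and none as lower, both of them Cbx1 and so 1 gene. By the same limma test 6.74% of the 23739 tested probe sets were higher and 0.274% were lower. These 1599 and 65 calls became 271 and 1 without SCC replicate 2, 243 and 2 without SCC replicate 3, 572 and 7 without cytoplast replicate 1, and 678 and 10 without cytoplast replicate 2. Among the 5919 that were above background on all arrays 18.3% were higher. Arrays of the SCC lay wholly above those of the cytoplast for 3 Cbx probe sets, all of Cbx1 (13.9% of all probe sets did so). They lay wholly below for 1, Cbx8 1419198_at (5.88% of all). The median log2 difference was 0.014 for the 14 and 0.013 for all probe sets tested. Of the 14, 10 were HP1 probe sets, with a median of 0.052, and 4 were Polycomb probe sets, with a median of -0.032.

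Whether Cbx1 passed changed with the arrays kept and with the scaling. Without SCC replicate 2 the log2 differences of the brightest and second probe sets were 0.71 and 0.80 and neither passed (adjusted p = 0.0725 and 0.0643). Without SCC replicate 3 they were 0.67 and 0.82, and again neither passed (0.0716 and 0.0619). Calls over all probe sets fell in these fits too, as given above. Without SCC replicate 1 the differences were 0.94 and 1.16, and both passed (adjusted p = 0.0062 and 0.0034). Both also passed without cytoplast replicate 1 (0.0459 and 0.041) or replicate 2 (0.0431 and 0.0349). After cyclic loess the log2 difference of 1433718_a_at was 0.52 (adjusted p = 0.0634), while that of 1436266_x_at was 0.70 and still passed. After quantile normalization the values were 0.47 (adjusted p = 0.0932) and 0.62 (0.058). Over all probe sets, 96.1% of the calls were higher in the SCC as deposited, 80.7% with cyclic loess and 73.1% with quantile normalization. For each of the 3 bright Cbx1 probe sets the difference was positive under all 20 alternatives run, but many of these could not turn the sign. The filters, the 2 groups alone, the other moderation and leaving out an MII oocyte array kept the differences as they were. Leaving out a single SCC or cytoplast array could not reverse groups whose arrays did not overlap.

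A measure of RNA quality differed between the same groups. The log2 difference between the 3′ and 5′ control probe sets of beta-actin was 3.27 to 3.65 in the SCC and 3.66 to 5.29 in the cytoplast, with no overlap of arrays (exact two-sided permutation p = 0.0571, n = 3 and 4, where 0.0286 is the smallest possible). With that measure as a covariate the Cbx1 differences were 0.67 and 0.87, and neither passed (adjusted p = 0.24 and 0.20). Only 6 probe sets of the whole array passed in that fit, so its part in the Cbx1 difference cannot be told apart from the groups. The 95th percentile of intensity measures how bright an array is. It was 618 to 788 in the SCC and 521 to 626 in the cytoplast. Quantile normalization, which gives all arrays a common distribution, left Cbx1 differences of 0.47 and 0.62, and neither passed. What part brightness had in the difference as deposited was not tested. The same 3′ to 5′ measure for Gapdh overlapped, with 2.32 to 3.23 in the SCC and 2.57 to 3.92 in the cytoplast.

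**Figure D3:**
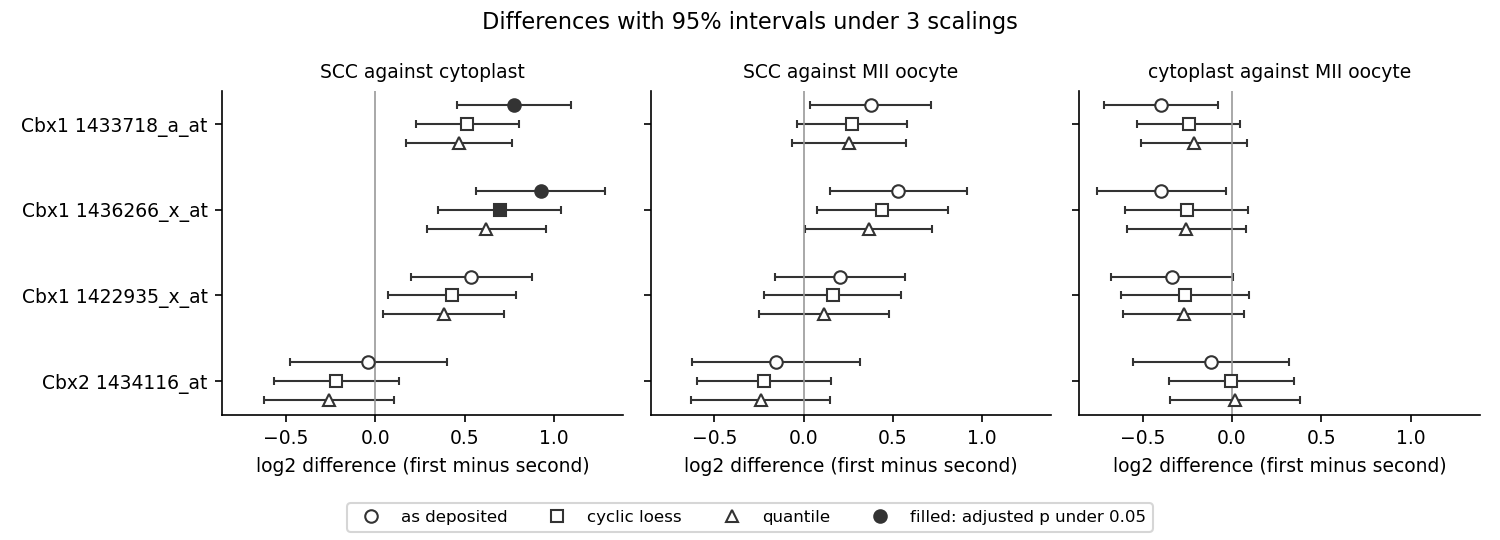
Log2 differences with 95% intervals of the 4 Cbx probe sets above background, in the 3 comparisons and under 3 scalings, with filled markers where the adjusted p was under 0.05. Filled markers appear only for Cbx1 in the SCC against the cytoplast, where 2 probe sets passed as deposited, 1 after cyclic loess and none after quantile normalization.

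The intact oocyte stood between its parts for Cbx1, without a called difference from either. Against the MII oocyte, none of the 14 Cbx probe sets was higher or lower in the SCC, where 0.0421% of all probe sets were higher and 0% lower (10 and 0). Over all probe sets that count moved with single arrays, to 444 higher and 253 lower without MII oocyte replicate 3, and to 0 of either without SCC replicate 2 or 3, cytoplast replicate 1 or MII oocyte replicate 2. No Cbx probe set was called in any of these fits. At an unadjusted p under 0.05 there were 3 Cbx probe sets and 2871 probe sets in all. The log2 difference was 0.38 for 1433718_a_at (95% interval 0.034 to 0.72, limma adjusted p = 0.359) and 0.53 for 1436266_x_at (0.15 to 0.91, adjusted p = 0.241). Since SCC replicate 1 fell among the MII oocyte arrays, the groups overlapped on both.

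Between the cytoplast and the MII oocyte, again none of the 14 passed, and 0% of all probe sets did so in either direction. At an unadjusted p under 0.05 there were 2 Cbx probe sets, both of Cbx1, and 1054 in all. The log2 difference was -0.40 for 1433718_a_at (95% interval -0.72 to -0.081) and -0.40 for 1436266_x_at (-0.76 to -0.037), each with a limma adjusted p of 0.926. For these 2 probe sets every cytoplast array was below every MII oocyte array, which held for 3.83% of all probe sets tested (1.89% lay wholly above). The 3 comparisons share their arrays, so their values for Cbx1 are not independent of each other.

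Cbx2, the Polycomb member above background, did not follow Cbx1. Probe set 1434116_at read 150, 167 and 193 in SCC replicates 1 to 3, and 188, 154, 143 and 219 in cytoplast replicates 1 to 4. In MII oocyte replicates 2 to 4 it read 204, 138 and 237. The 3 groups overlapped throughout, with means of 170 ± 21.9 (SD, n = 3), 176 ± 34.5 (n = 4) and 193 ± 50.5 (n = 3). The log2 difference between SCC and cytoplast was -0.038 (SE 0.20, limma adjusted p = 0.949), and its 95% interval of -0.48 to 0.40 leaves room for a change in either direction. The values were -0.16 against the MII oocyte (adjusted p = 0.843) and -0.12 for cytoplast against MII oocyte (adjusted p = 0.95). The sign turned under 4, 1 and 2 of the 20 alternatives, in that order. Over the 10 arrays its correlation with the brightest Cbx1 probe set was 0.0104.

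The other HP1 genes were dim. Cbx5, which encodes HP1 alpha, had 5 probe sets, none above background on any array, with values from 11.12 to 56.04. Its brightest, 1450416_at, read 51.2, 44.0 and 36.1 in the SCC, 51.7, 43.2, 42.9 and 34.3 in the cytoplast, and 37.4, 45.1 and 40.8 in the MII oocyte. Cbx3, which encodes HP1 gamma, read 24.1, 26.2 and 20.9 in the SCC, 22.7, 18.3, 17.7 and 23.2 in the cytoplast, and 27.6, 20.8 and 27.6 in the MII oocyte. The groups overlapped on both.

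The remaining Polycomb genes were dim too. Cbx6 ranged from 13.67 to 20.61 over 2 probe sets, Cbx7 from 8.49 to 20.38 over 3 and Cbx8 from 9.90 to 25.40 over 2. Cbx8 1419198_at read 16.5, 16.6 and 18.6 in the SCC, below all cytoplast arrays (19.0, 20.4, 19.2 and 19.0) and all MII oocyte arrays (25.4, 19.1 and 20.1), where 5.34% of all probe sets lay wholly below the MII oocyte arrays and 8.71% wholly above. It passed in neither comparison (limma adjusted p = 0.493 and 0.361). Both groups were below background, so no fold is given. Of the 16 probe sets never above background, 10 were tested and none was called in any comparison. The 6 left out of the tests as too dim were 1 each of Cbx2, Cbx5, Cbx6 and Cbx8 and 2 of Cbx7. A transcript at background here may be absent, or may be missed by these probes.

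Genes related to the Cbx proteins as partners, through the Polycomb complexes or only by a shared chromodomain were followed in 4 lists. HP1 partners and enzymes of H3 lysine 9 or H4 lysine 20 methylation had 23 of 28 listed genes tested. Of these, 5 were higher in SCC against cytoplast and none lower. Suv39h1, Adnp, Chaf1a, Chaf1b and Kdm4c were not tested. In the list 14 genes were above background on all arrays, and 18.3% of all such probe sets were higher. Of all 12714 genes tested, 8.02% were higher and 0.275% lower. The median log2 difference was 0.34 for the list and 0.024 for all genes. Atrx, a chromatin remodeller found at HP1-bound heterochromatin, averaged 2619 ± 601 over SCC arrays (SD, n = 3) and 793 ± 218 over cytoplast arrays (n = 4), a 3.34-fold difference (log2 1.74, SE 0.26, limma adjusted p = 0.00557). Lbr, the lamin B receptor of the nuclear envelope, which binds HP1, was 3.07-fold higher (adjusted p = 0.0148). Hp1bp3, an HP1-binding relative of linker histones, was 1.66-fold higher (adjusted p = 0.0154). Incenp, the inner centromere protein, was 1.63-fold higher (adjusted p = 0.0187) and Dnmt1, the maintenance DNA methyltransferase, 2.54-fold (adjusted p = 0.0373).

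Of these 5, Atrx and Lbr also passed under both other scalings, cyclic loess and quantile, and Hp1bp3, Incenp and Dnmt1 under neither. Leaving out SCC replicate 2 or 3 left 1 call in the list. Leaving out cytoplast replicate 1 left 2, cytoplast replicate 2 left 3, and dropping MII oocyte replicate 3 gave 8, in either direction. Over all probe sets tested, that last fit had 2044 higher and 191 lower, against 1599 and 65 in the main fit. With the beta-actin measure as a covariate, none of the genes in any of the 4 lists passed. Their log2 differences in that fit were 1.84 for Atrx, 1.58 for Lbr, 0.77 for Incenp, 0.66 for Hp1bp3 and 0.74 for Dnmt1. Atrx passed whichever array was left out.

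The other subunits and partners of PRC1 had 20 of 23 listed genes tested, 5 of them higher in the SCC with none lower. Ring1, Rybp and Scml4 were not tested. Of all genes tested, 8.02% were higher and 0.275% lower. In the list 13 genes were above background on all arrays, and 18.3% of all such probe sets were higher. The median log2 difference was 0.26 for the list and 0.024 for all genes. Pcgf1, a subunit of a variant PRC1 that lacks Cbx proteins, averaged 715 ± 101 over SCC arrays (SD, n = 3) and 336 ± 80.1 over cytoplast arrays (n = 4), a 2.16-fold difference (log2 1.11, SE 0.21, limma adjusted p = 0.0126). Rnf2, a catalytic E3 ubiquitin ligase of PRC1, was 1.96-fold higher (adjusted p = 0.0288). The histone-binding protein Wdr5 was 1.52-fold higher, and Bmi1, a subunit of Cbx-containing PRC1, and the deubiquitinase Usp7 were 1.39-fold and 1.38-fold higher (adjusted p = 0.0295, 0.0337 and 0.0342). Of the 5, only Pcgf1 passed under both other scalings. With SCC replicate 2 or 3 left out no gene of the list passed. With cytoplast replicate 1 or 2 left out 1 did, with cytoplast replicate 3 left out 3 did, and under trend and robust moderation 3 did. Over all probe sets tested, those last 2 fits had 1404 higher and 43 lower, and 1300 and 55, against 1599 and 65.

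PRC2, the complex that writes the lysine 27 mark read by Polycomb Cbx proteins, had 12 of 14 listed genes tested. Epop and Lcorl were not. In the list 11 genes were above background on all arrays, and 18.3% of all such probe sets were higher in the SCC. The median log2 difference was 0.16 for the list and 0.024 for all genes. Of all genes tested, 8.02% were higher in the SCC and 0.275% lower. Of the 12, none was lower and 1 was higher. This was Aebp2, an accessory subunit, which averaged 2168 ± 233 over SCC arrays (SD, n = 3) and 1337 ± 77.2 over cytoplast arrays (n = 4), a 1.62-fold difference (log2 0.69, SE 0.11, limma adjusted p = 0.00736). It passed whichever array was left out but after neither cyclic loess nor quantile normalization (adjusted p = 0.0912 and 0.129). The core subunit Eed had a log2 difference of 0.42 and did not pass (adjusted p = 0.0649). The methyltransferase Ezh1 had a log2 difference of -0.40 (adjusted p = 0.156) and passed as lower after both of those scalings (adjusted p = 0.0475 and 0.0405).

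Other chromodomain proteins had 14 of 16 listed genes tested, with a median log2 difference of -0.035, against 0.024 for all genes. Morf4l1 and Kat8 were not tested. In the list 5 genes were above background on all arrays, and 18.3% of all such probe sets were higher in the SCC. Of all genes tested, 8.02% were higher in the SCC and 0.275% lower. Of the 14, none was lower and 1 was higher. Arid4a was at 173 ± 53.3 (SD, n = 3) in the SCC and above background on no cytoplast array, so at least 1.92-fold higher (limma adjusted p = 0.00527). It passed after both other scalings and whichever array was left out. Msl3, a subunit of a histone acetyltransferase complex, had a log2 difference of 0.49 (adjusted p = 0.058). The chromatin remodeller Chd4 had a log2 difference of -0.65 (adjusted p = 0.096) and passed as lower after quantile normalization (adjusted p = 0.0433). Without MII oocyte replicate 3, PRC2 had 3 calls and the other chromodomain proteins 3, and the latter had 3 without SCC replicate 1 and 2 without MII oocyte replicate 4. These counts take higher and lower calls together. Over all probe sets tested, these fits had 2044 higher and 191 lower, 1944 and 84, and 1442 and 61, in that order. The main fit had 1599 and 65. None of the genes in the 4 lists was called in either comparison with the MII oocyte.

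**Figure D4:**
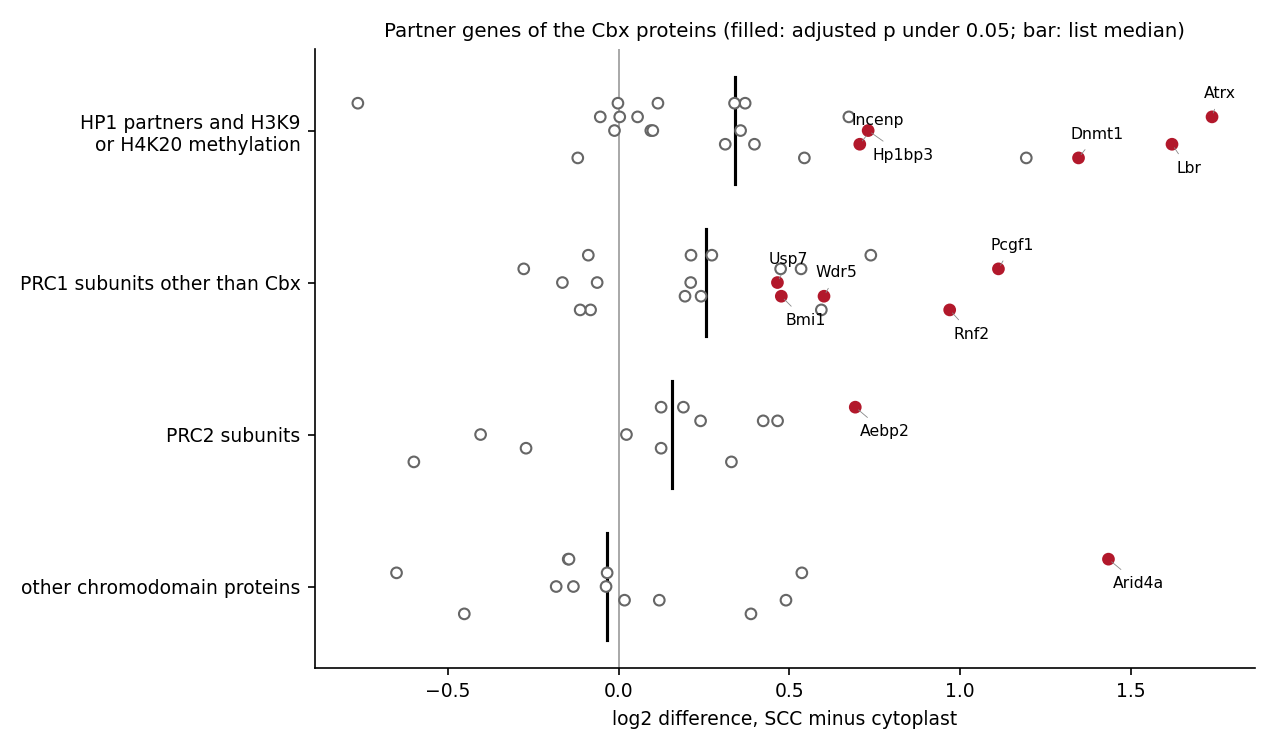
Log2 difference between SCC and cytoplast for the tested genes of the 4 lists, 1 point a gene, with filled points and names where the adjusted p was under 0.05 and a bar at each list's median. The named points number 5, 5, 1 and 1 in the lists of 23, 20, 12 and 14 genes, all to the right of 0. Of all genes tested, 8.02% were higher and 0.275% lower.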

How the data were processed

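The values deposited by the authors are linear intensity values, 1 per probe set and array. The submitters' processing notes name RMA, with no version or settings, and no scanner files were analysed here. As deposited, the arrays did not share a common distribution, with 95th percentiles from 521 to 788. The values of the main fit were therefore not quantile normalized, and how RMA was applied is not known. Up to 50 ng of total RNA per sample was amplified in 2 rounds, per the labels' protocols.

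Here log2 was taken and the 64 control probe sets were set aside. The annotation gave exactly 1 gene to 34945 other probe sets, several to 932 and none to 9160, and 34741 of those with 1 gene were matched by gene ID to RefSeq names (GRCm38.p6, used only for names). No coordinates are printed. Tested were the 23739 probe sets that exceeded the median of the array on 3 or more arrays, with limma 3.58.1 in R 4.3.3, 1 mean per group over all 10 arrays, and Benjamini-Hochberg adjustment over all of them, at a threshold of 0.05. A gene's value was that of its brightest tested probe set. For a fold given as a lower bound, each array of the dim group was set to the background level or its own value, whichever was higher.

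Described were all Cbx probe sets, the 3 genes of smallest p in each list, the 3 genes most alike each member, and, chosen after their values were seen, the other called genes of the lists. The members and lists were chosen with earlier results of these data known. Alternatives were 2 normalizations, 2 filters, an added constant of 16, the 2 groups alone, another moderation, the replicate number as a block, 2 technical covariates, the median probe set, and each array left out.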

Additional observations from a re-analysis of the deposited data

Results flagged for a closer look

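In the cytoplast, the only group of 4 arrays, 26 values were checked for 1 array far from the others, and 2 were found; chance flags about 1 group in 20. For Cbx1 1436266_x_at, cytoplast replicate 1 read 253 against 272.23 to 273.09 for the others, a gap of 0.959 of the group's whole range on the log2 scale. For Cbx8 1419198_at, below background, cytoplast replicate 2 read 20.41 against 18.99 to 19.18, a gap of 0.862 of the range.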

How the results depend on the processing

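The count of Cbx probe sets called between SCC and cytoplast was 2; it was 1 after cyclic loess, 0 after quantile normalization, 0 with the beta-actin covariate, and 0 to 3 with single arrays left out, the 3 being without cytoplast replicate 3. It was 2 with the replicate number as a block, and the block changed no other Cbx call; the other counts were 0 under every alternative run. Arrays sharing a replicate number had residuals that correlated by 0.0214 (mean of 8 pairs, -0.304 to 0.614, 2 over 0.1). No value for arrays with different numbers was set beside it, so it does not decide whether arrays sharing a number are paired. Whether they share a pool of oocytes was not tested. With the block, SCC against MII oocyte had 125 probe sets higher and 14 lower over the whole array, against 10 and 0. SCC against cytoplast had 1834 higher and 110 lower, against 1599 and 65. The causes were not tested. Cbx2 changed sign against the cytoplast with the block (0.0785), with the beta-actin covariate (0.0303) and over left-out arrays (-0.13 to 0.0742). It also did so for SCC against MII oocyte over left-out arrays (-0.38 to 0.011), and for cytoplast against MII oocyte after quantile normalization (0.0172) and over left-out arrays (-0.34 to 0.049). The third Cbx1 probe set passed with the stricter filter (adjusted p = 0.0495), the hybridisation control covariate (0.0359) and without cytoplast replicate 3 (0.0342). Taking the median of its 5 tested probe sets, Cbx1 had a log2 difference of 0.54 in place of 0.78. The HP1 partner list had 8 calls, in either direction, with only the 2 groups compared. Over all probe sets tested, that fit had 1879 higher and 185 lower, against 1599 and 65. For the 10 tested Cbx probe sets never above background no fold is given, and none was called in any comparison.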

Other observations

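A difference within each array does not move with a constant scaling of that array. The log2 value of the brightest Cbx1 probe set minus that of the brightest Cbx2 probe set was 2.56, 2.84 and 2.71 in SCC replicates 1 to 3, and 1.66, 1.93, 2.35 and 1.63 in cytoplast replicates 1 to 4. Every SCC array was above every cytoplast array, by 0.81 on average (exact two-sided permutation p = 0.0571, n = 3 and 4, where 0.0286 is the smallest possible). The MII oocyte arrays read 2.14, 2.65 and 1.73 and overlapped with both. This measure was chosen after seeing how both genes behaved, so it restates that observation, and its p did not pass 0.05.

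Among the 12714 genes tested, those whose log2 values followed Cbx1 most closely over the 10 arrays were E130311K13Rik, Vma21 and Mosmo (Pearson r = 0.99 each). For Cbx2 they were Klhl18 (0.99), Tsga10 (0.98) and Abcg1 (0.97). All 6 were above background on all arrays. For members at background the closest genes were Pptc7, Chst14 and Klf10 for Cbx3 (0.94 to 0.95), Gm5142, Catsperg1 and Ksr1 for Cbx5 (0.87 to 0.91), and Smarca2, Ttc7 and Tmem52 for Cbx6 (0.91 to 0.93). For Cbx7 they were Nab2, Nudcd3 and Aldoc (0.95 to 0.97), and for Cbx8 Zbtb8b, E330012B07Rik and Prxl2a (0.93 to 0.95). These are the highest of many correlations over arrays that share 3 groups, and are given as a description.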
